A study of Rattus norvegicus with 8 samples.

Results

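Glycolysis and hypoxia response genes were described as a set of 37 genes listed by their known role: glucose transporters, the enzymes of glycolysis, the handling of pyruvate and lactate, the PFKFB regulators, the hypoxia-inducible factor (HIF) system and textbook HIF targets. The deposited table held 36 of the 37 genes among its 31699 rows, 34 under the current symbol and 2 (Car9 and Car12) under an older one. Pgk1, phosphoglycerate kinase, had no row under its symbol and was not analysed here. Aldoa had 2 rows, so the 36 genes gave 37 rows, of which 36 had a mean level of at least 1 TPM, a level per transcript length scaled within each sample, and were tested. Car12 was below that level, at 0 to 0.0900 TPM in Lv-Ctrl and 0.110 to 0.280 TPM in Lv-Piezo1.

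Annulus fibrosus cells (AFCs), fibroblast-like cells from the ring around the disc's nucleus, were taken from Sprague Dawley rats, with the tissue of 8 rats pooled in each isolation. One group (Lv-Ctrl, n = 4) had received the lentiviral vector pLVX-shRNA-Puro and the other (Lv-Piezo1, n = 4) the same vector with an shRNA against Piezo1, a mechanically gated calcium-permeable channel (24 h of infection, MOI 20, the number of viral particles per cell). Both groups were under mechanical stretch, which the study applied cyclically (CMS) at 0.5 Hz and 20% elongation for 36 h. There were no unstretched and no uninfected samples, so that the effects of stretch and of infection cannot be read from these data. The methods give male rats of 3 months for the animal model and no separate age for the rats whose cells were isolated. They count cells of 1 isolation, treated at the third generation, as 1 independent repeat, and give at most 4 such repeats. By that count the 8 samples came from at most 4 isolations, so that isolations were shared between samples. The methods do not say whether samples that share a number came from the same isolation.

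Glycolysis turns 1 glucose molecule into pyruvate in the cytosol, and lactate dehydrogenase turns pyruvate into lactate, which leaves the cell through monocarboxylate transporters. In low oxygen the HIF-α subunits escape hydroxylation by the EGLN enzymes and destruction by the VHL ubiquitin ligase, and switch on many glycolytic genes together with genes of angiogenesis, pH control and mitophagy. The intervertebral disc is a poorly vascularised tissue, and its cells are known to rely largely on glycolysis. HIF activity is set mainly at the protein level, and oxygen, HIF protein, glucose uptake and lactate were not measured here.

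Piezo1 itself was measured first as a check of the labels. It stood at 31.1, 32.99, 26.7 and 29.5 TPM in the Lv-Ctrl samples and at 38.1, 37.7, 40.2 and 41.4 TPM in the samples labelled Lv-Piezo1. The targeted transcript was thus higher, not lower, in every sample labelled as the knockdown, with a log2 fold change of 0.38 (SE 0.06, limma adjusted p = 8.6e-04) on the log2(TPM + 1) scale. The labels are used as given below, and higher or lower always means in the samples labelled Lv-Piezo1.

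The samples of a group correlated at 0.973 to 0.983 (Pearson r of log2(TPM + 1) over tested genes), and samples of different groups at 0.939 to 0.945. Collagen and fibroblast markers were abundant in all 8 samples, at a sum of 9746 to 11156 TPM in Lv-Ctrl and 12742 to 13610 TPM in Lv-Piezo1, with Tnmd under 1 TPM. Of the 11 tested, 6 were higher at an adjusted p below 0.05, among them Col1a1 and Col1a2, and 4 were lower. Of all tested genes 41.9% were higher and 16.3% lower at that threshold. The 4 lower markers had log2 fold changes of -1.59 for Col12a1, -1.49 for Dcn, -0.99 for Fmod and -0.76 for Mkx. The 7 smooth muscle markers summed to 434 to 449 TPM in Lv-Ctrl and 4585 to 4753 TPM in Lv-Piezo1. With a 2-fold change required as well, 6 of the 7 were called higher, beside 4.91% of all tested genes. Nucleus pulposus markers were at 6.33 to 7.17 TPM in Lv-Ctrl and 27.0 to 31.8 TPM in Lv-Piezo1 with Tbxt, Shh and Noto at 0, and chondrocyte markers at 34.0 to 40.6 and 54.1 to 57.7 TPM with Col2a1 under 1 TPM. The macrophage list was at 0.320 to 2.08 and 11.7 to 13.45 TPM, mostly Cd68, with Ptprc, Csf1r and Aif1 under 1 TPM and Adgre1 at 0. The neuron list stood at 5.46 to 6.83 and 9.65 to 10.9 TPM with Rbfox3 at 0 and Syp and Nefl under 1 TPM. Its tested genes parted, with means of 3.3 against 9.5 TPM for Tubb3 and 2.9 against 0.54 TPM for Snap25. Endothelial and erythroid markers stayed at or below 2.95 TPM. Skeletal muscle markers were at 13.1 to 14.5 TPM in 3 Lv-Ctrl samples, 57.0 TPM in Lv-Ctrl replicate 2 and 22.1 to 24.9 TPM in Lv-Piezo1. The part of these marker shifts in the changes below was not tested, and in bulk RNA fewer cells of a type and less RNA per cell cannot be told apart.

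Most of the glycolysis and hypoxia genes were higher in the samples labelled Lv-Piezo1, usually by less than 2-fold. At an adjusted p below 0.05, 29 of the 36 tested rows were higher, 4 were lower (Ldhb, Adm, Pdha1 and Bnip3) and 3 did not pass (Hk2, Tpi1 and Gapdh). This threshold was also passed by 58.2% of all 13103 tested genes, 41.9% as higher and 16.3% as lower, against 91.7% of the member rows. With a 2-fold change required as well, 4 rows were called higher (Egln3, Epas1, Slc16a3 and Ddit4) and 1 lower (Ldhb), or 13.9% of the rows, beside 7.67% of all tested genes (4.91% higher and 2.76% lower). The 4 values of each group did not overlap in 33 rows, 29 higher and 4 lower, where 54.2% of all genes showed no overlap (39.8% higher and 14.5% lower). For these 33 rows the exact two-sided permutation test gave p = 0.029, the smallest that 70 relabelings allow.

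Over all tested genes the median log2 fold change was 0.14, so the middle of the tested genes lay somewhat higher in Lv-Piezo1. TPM is scaled to the same total in every sample, so this marks a shift in shares and not a rise of the whole table. Mitochondrial genes held 6.87% to 7.74% of the total in Lv-Ctrl and 5.69% to 6.16% in Lv-Piezo1. Without them the all-gene median was 0.12. The members had a median of 0.48, with 28 of 36 rows above the all-gene median. After median-ratio scaling, which moved the all-gene median to -0.0046, the median of the members was 0.32 and 23 of the 29 higher rows kept an adjusted p below 0.05. The 6 that did not were Hk1, Pkm, Ldha, Vhl, Car9 and Ankrd37. All 4 lower rows remained lower and Tpi1 joined them, whereas over all genes 27.9% were higher and 27.9% lower. Under this scaling 4 members were called higher and 2 lower (Ldhb and Adm), beside 3.92% and 3.57% of all genes. Hk2, Tpi1 and Ldha changed sign under this scaling. Under quantile normalization, by contrast, Tpi1 passed as higher (0.0998, limma adjusted p = 0.015).

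**Figure D1:**
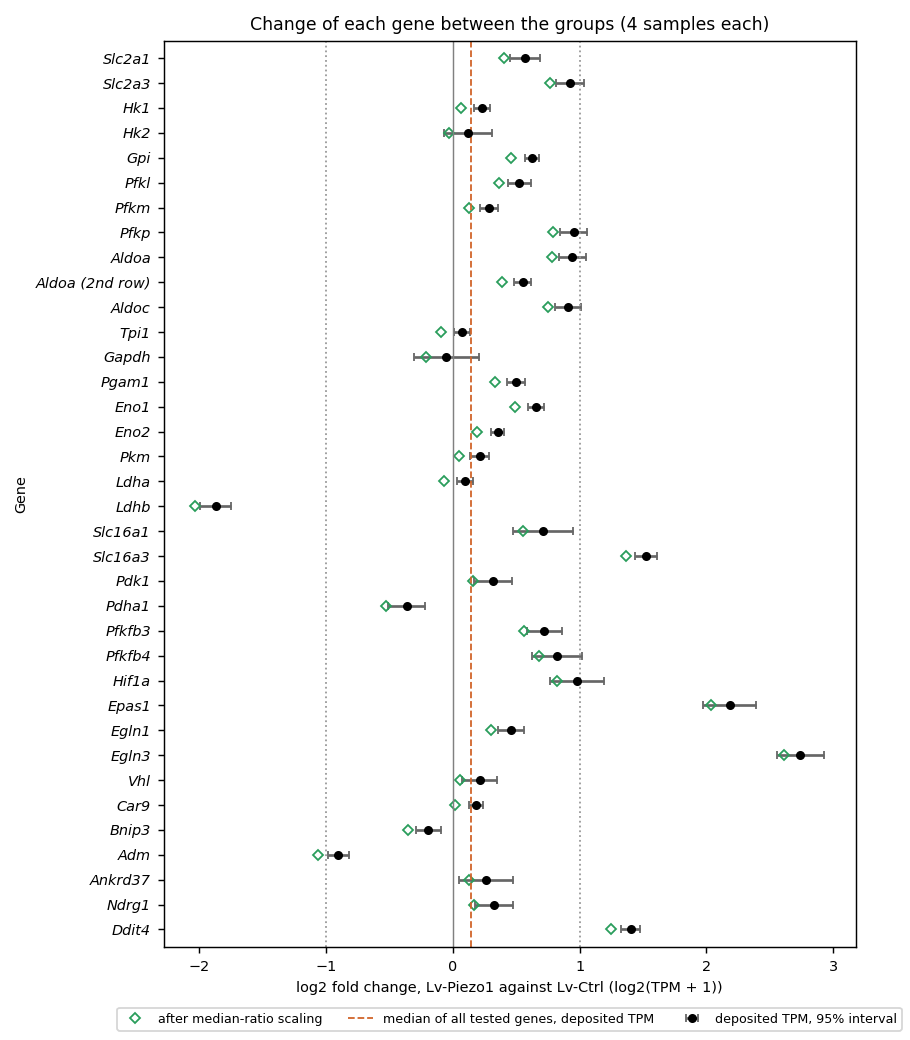
Log2 fold change (x axis, log2(TPM + 1) scale) of each tested row (y axis) between 4 Lv-Piezo1 and 4 Lv-Ctrl samples, with black points and bars for the deposited TPM and its 95% interval, green diamonds for the same change after median-ratio scaling, and a dashed line at the all-gene median of 0.14. Egln3, Epas1, Slc16a3 and Ddit4 lie beyond the dotted 2-fold line on the right and Ldhb beyond that on the left, under both scalings, and Adm passes the left line after scaling.

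The HIF system held the highest increases. Egln3 encodes PHD3, a prolyl hydroxylase that marks HIF-α for destruction and is itself a HIF target. Its level was 1.22, 1.22, 1.67 and 1.60 TPM in Lv-Ctrl and 14.4, 15.02, 15.8 and 15.4 TPM in Lv-Piezo1. The groups were far apart, with a ratio of means of 10.6 and a log2 fold change of 2.74 (SE 0.08, limma adjusted p = 1.5e-08). Epas1, which encodes HIF-2α, was at 7.0, 7.06, 5.15 and 5.73 TPM in Lv-Ctrl and 31.2, 30.0, 31.3 and 34.2 TPM in Lv-Piezo1. Its log2 fold change was 2.18 (SE 0.09, limma adjusted p = 1.3e-07), and the lowest Lv-Piezo1 sample was above 4 times the highest Lv-Ctrl sample.

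Hif1a, the gene of HIF-1α, lay just below the 2-fold line. It was measured at 74.3, 76.9, 58.6 and 73.6 TPM in Lv-Ctrl and at 132, 127, 146 and 157 TPM in Lv-Piezo1, with no overlap. The log2 fold change was 0.98 (SE 0.10, limma adjusted p = 2.6e-05). It ranged from 0.89 to 1.03 when single samples were left out, so that its side of the fold threshold depended on the sample. Median-ratio scaling gave 0.82 and quantile normalization 0.92, both below the 2-fold line. Egln1, which encodes PHD2, the main oxygen sensor of the family, was at 17.4 to 18.7 TPM in Lv-Ctrl and 24.2 to 26.8 TPM in Lv-Piezo1, a log2 fold change of 0.46. Vhl was at 22.2 to 25.4 against 26.5 to 30.8 TPM, with a log2 fold change of 0.21 (adjusted p = 0.016), and 0.055 after median-ratio scaling, where it no longer passed.

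The balance within both pairs of HIF genes moved. Egln3 made up 6.38% to 8.21% of the summed Egln1 and Egln3 level in Lv-Ctrl and 36.4% to 38.8% in Lv-Piezo1. That sum leaves out Egln2, a gene outside the set that was more abundant than either in all 8 samples. Egln2 was at 42.0 ± 1.52 TPM in Lv-Ctrl and 36.1 ± 1.60 TPM in Lv-Piezo1 (SD, n = 4). Epas1 made up 7.22% to 8.61% of the summed HIF-α level in Lv-Ctrl and 17.7% to 19.1% in Lv-Piezo1, so Hif1a remained the more abundant subunit transcript in all 8 samples. TPM is a level per transcript length, and a share within a sample does not depend on how that sample was scaled.

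The other genes of the HIF system were mixed in direction. Of 10 tested genes in that list, 2 were higher at an adjusted p below 0.05, 4 were lower and none passed the 2-fold threshold, with a median log2 fold change of -0.15 beside 0.14 for all genes, of which 41.9% were higher, 16.3% lower and 7.67% past both thresholds. Arnt, the partner of the HIF-α subunits, had a log2 fold change of 0.33 (16.6 ± 1.81 against 21.1 ± 2.38 TPM, SD, n = 4), and Hif1an, the asparaginyl hydroxylase FIH, of 0.28. Arnt2 was lower by a log2 fold change of -0.55, Rbx1, a part of the VHL ligase complex, by -0.31, Cited2, which competes with HIF for its coactivators, by -0.22, and Egln2 by -0.21. After median-ratio scaling none of the 10 was higher at an adjusted p below 0.05 and 7 were lower, beside 27.9% and 27.9% of all tested genes.

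**Figure D2:**
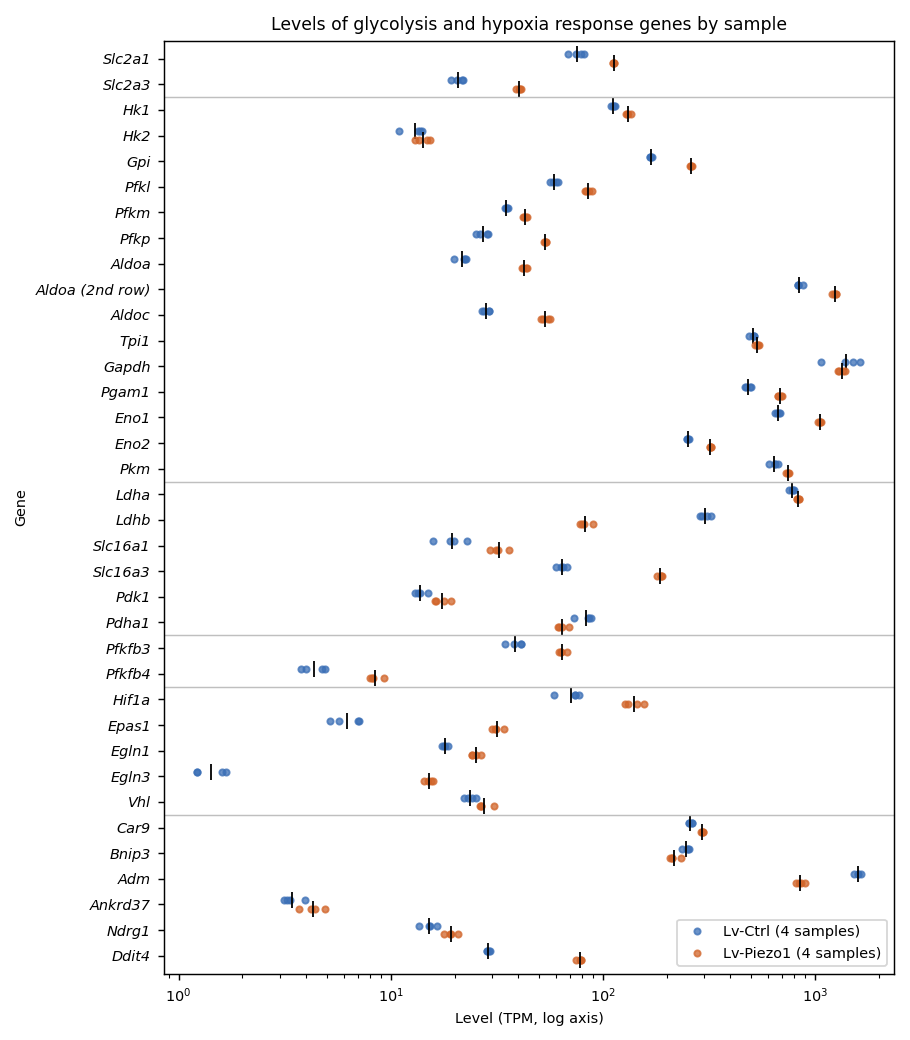
Level of each tested row in each of the 8 samples (x axis, TPM on a log axis), with genes on the y axis in blocks by role, blue points for Lv-Ctrl, orange points for Lv-Piezo1 and a black tick at each group mean. The blue and orange points are separated in 33 of the 36 rows and overlap in Hk2, Gapdh and Ankrd37, and the widest gaps are those of Egln3, Epas1 and Ldhb.

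Sequences of the 4 called genes with the largest changes are given because HIF binds DNA at a short core, RCGTG in the code where R stands for A or G. Windows of 300 bases, from 250 before to 50 after the transcription start, came from RefSeq on the rat build GRCr8, and the letters ACGTG and GCGTG were searched on both strands, where a palindromic CACGTG counts as 2 matches. The window of Egln3 is chr6:77410966-77411265 on the minus strand, that of Epas1 is chr6:13624680-13624979 on the minus strand, that of Ldhb is chr4:177177359-177177658 on the minus strand and that of Slc16a3 is chr10:106712078-106712377 on the plus strand. Each is written 5′ to 3′ along the strand of the gene, and capitals mark a match.
Egln3: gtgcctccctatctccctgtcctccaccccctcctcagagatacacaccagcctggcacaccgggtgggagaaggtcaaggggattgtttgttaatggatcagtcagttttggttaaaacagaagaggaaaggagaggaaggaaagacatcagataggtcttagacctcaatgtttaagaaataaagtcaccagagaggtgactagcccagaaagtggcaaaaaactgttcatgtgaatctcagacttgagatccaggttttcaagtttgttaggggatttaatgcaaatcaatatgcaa
Epas1: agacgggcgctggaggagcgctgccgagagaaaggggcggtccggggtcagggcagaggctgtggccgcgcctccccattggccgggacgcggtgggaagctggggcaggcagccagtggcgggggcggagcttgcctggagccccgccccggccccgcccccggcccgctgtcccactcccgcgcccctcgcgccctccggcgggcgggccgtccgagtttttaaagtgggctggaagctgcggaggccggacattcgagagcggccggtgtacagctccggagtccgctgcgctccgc
Ldhb: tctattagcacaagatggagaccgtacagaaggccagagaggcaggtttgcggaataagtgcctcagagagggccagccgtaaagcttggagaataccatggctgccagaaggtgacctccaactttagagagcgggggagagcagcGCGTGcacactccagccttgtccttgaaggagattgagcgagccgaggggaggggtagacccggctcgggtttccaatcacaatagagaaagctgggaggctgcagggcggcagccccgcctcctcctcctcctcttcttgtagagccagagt
Slc16a3: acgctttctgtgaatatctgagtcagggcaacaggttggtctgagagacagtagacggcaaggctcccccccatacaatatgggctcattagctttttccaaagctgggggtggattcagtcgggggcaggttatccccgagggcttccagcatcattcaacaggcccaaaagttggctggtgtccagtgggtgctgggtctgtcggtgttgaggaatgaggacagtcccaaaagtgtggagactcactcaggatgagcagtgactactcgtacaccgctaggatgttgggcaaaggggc
The windows of the 3 genes that rose held neither letter string, and that of Ldhb, which fell, held 1 GCGTG. No match says only that these letters are not in this window.

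Windows were found for 34 of the 37 genes. ACGTG was present in 21 of them (61.8%), beside 27.4% of 8968 tested genes with a window and 20.9% of all 27457 genes of the promoter table. GCGTG was present in 17 (50%), beside 52.6% of tested genes. Either string, the full RCGTG core, was present in 25 (73.5%), beside 64.6% of tested genes, a smaller gap than for ACGTG alone. The median GC content was 62.6% for the members and 61.3% for tested genes. The members had been picked partly as known HIF targets, and the shares are given as a description with no test. The highest number of matches was in the Ldha window, with 3 of each string, and Ldha was among the genes with the smallest change, while Ankrd37 held 4 ACGTG and 1 GCGTG.

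Both glucose transporters were higher. Slc2a1, which encodes GLUT1, the basal glucose transporter of most cells, was at 81.2, 79.1, 68.2 and 74.8 TPM in Lv-Ctrl and at 113, 112, 112 and 113 TPM in Lv-Piezo1, a log2 fold change of 0.57 (SE 0.05, limma adjusted p = 1.6e-05). Slc2a3, which encodes the high-affinity transporter GLUT3, was at 21.7, 21.9, 19.2 and 20.5 TPM in Lv-Ctrl and 40.5, 39.0, 41.2 and 40.9 TPM in Lv-Piezo1. With a log2 fold change of 0.93 (SE 0.05, limma adjusted p = 4.8e-07) it lay just below the 2-fold line. Slc2a3 took 21.1% to 21.9% of the summed level of the pair in Lv-Ctrl and 25.8% to 26.8% in Lv-Piezo1, without overlap.

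The transcripts of the glycolytic enzymes were higher at most steps, each by less than 2-fold. Of 15 rows, 12 were higher at an adjusted p below 0.05, 0 were lower and 3 did not pass, and 0 reached the 2-fold threshold, with a median log2 fold change of 0.50. Of all tested genes 41.9% were higher and 16.3% lower at that adjusted p. After median-ratio scaling 27.9% of all tested genes were higher and 27.9% lower, where 10 of the 15 rows were higher and 1, Tpi1, was lower. Their summed level was 5547, 5389, 4910 and 5214 TPM in Lv-Ctrl and 6594, 6552, 6642 and 6612 TPM in Lv-Piezo1, so that the groups did not overlap and the ratio of means was 1.25. The difference of 1335 TPM became 670.4 TPM after median-ratio scaling. Without Gapdh, which varied most between the Lv-Ctrl samples, the sum was 3865 ± 33.9 TPM in Lv-Ctrl and 5264 ± 27.3 TPM in Lv-Piezo1 (SD, n = 4).

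The early steps moved unequally. Hk1, the broadly expressed hexokinase that traps glucose in the cell, was at 109.8 to 114 TPM in Lv-Ctrl and 129 to 136 TPM in Lv-Piezo1, a log2 fold change of 0.23 that became 0.069 after median-ratio scaling and no longer passed. Hk2, the hexokinase regulated by insulin and HIF, was at 14.0, 13.8, 10.9 and 13.4 TPM in Lv-Ctrl and 13.1, 13.6, 14.8 and 15.3 TPM in Lv-Piezo1. These groups overlapped, and the 95% interval of the log2 fold change ran from -0.072 to 0.31 (limma adjusted p = 0.26). Gpi, glucose-6-phosphate isomerase, was at 167 to 171 TPM in Lv-Ctrl and 257 to 263 TPM in Lv-Piezo1, with a log2 fold change of 0.62 (SE 0.02, limma adjusted p = 8.0e-08).

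Phosphofructokinase commits fructose-6-phosphate to glycolysis, and its 3 genes rose to different extents. Pfkp, the platelet form, was at 28.5, 26.4, 25.2 and 28.8 TPM in Lv-Ctrl and 53.0, 53.3, 53.8 and 54.1 TPM in Lv-Piezo1, a log2 fold change of 0.95 (SE 0.05, limma adjusted p = 3.4e-07). Pfkl, the liver form and the most abundant of the 3, changed by 0.53 on the log2 scale and Pfkm, the muscle form, by 0.29. The share of Pfkp in their sum was 21.4% to 23.8% in Lv-Ctrl and 28.6% to 30.0% in Lv-Piezo1, and that of Pfkm fell from between 27.9% and 29.6% to between 23.2% and 24.1%. The share of Pfkl was 46.6% to 49.4% against 45.9% to 47.8%, with overlap.

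Aldolase splits the 6-carbon sugar. Nearly all of the Aldoa level was in the row described as LOC103691235 (gene identifier ENSRNOG00000067655, the second Aldoa row of the plots), at 832, 835, 881 and 834 TPM in Lv-Ctrl and 1259, 1263, 1235 and 1208 TPM in Lv-Piezo1, a log2 fold change of 0.55 (SE 0.03, limma adjusted p = 5.6e-07). The other row (ENSRNOG00000052802) was at 19.97 to 22.7 TPM in Lv-Ctrl and 41.8 to 43.8 TPM in Lv-Piezo1, and how reads were split between the 2 rows is uncertain. Aldoc, the brain form, was at 26.9 to 29.1 TPM in Lv-Ctrl and 50.9 to 56.4 TPM in Lv-Piezo1, with a log2 fold change of 0.91 (SE 0.05). It made up 3.04% to 3.30% of the aldolase level in Lv-Ctrl and 3.77% to 4.31% in Lv-Piezo1.

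Tpi1 and Gapdh, in the middle of the pathway, had the smallest log2 fold changes among the enzymes as deposited, and after median-ratio scaling Hk2, Pkm and Hk1 had smaller ones. Tpi1, triosephosphate isomerase, was at 514, 515, 489.6 and 515 TPM in Lv-Ctrl and 546, 521, 534 and 537 TPM in Lv-Piezo1, with a log2 fold change of 0.072 (limma adjusted p = 0.054) and of -0.090 after median-ratio scaling. Gapdh, glyceraldehyde-3-phosphate dehydrogenase, was at 1639, 1513, 1067 and 1379.5 TPM in Lv-Ctrl and 1305, 1289.6, 1363 and 1386 TPM in Lv-Piezo1. The Lv-Ctrl values enclosed the Lv-Piezo1 values, and the log2 fold change was -0.050 with a 95% interval of -0.31 to 0.21 (limma adjusted p = 0.74). Without Lv-Ctrl replicate 3 it was -0.17 and passed (limma adjusted p = 0.028). A further GAPDH row with no symbol was at 586 to 649 TPM in Lv-Ctrl and 621 to 664 TPM in Lv-Piezo1 (log2 fold change 0.064, adjusted p = 0.19), and the sum of both rows was 1716 to 2255 against 1943 to 2007 TPM.

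The lower steps rose again for the enzymes of the set. Pgam1, phosphoglycerate mutase, was at 469 to 498 TPM in Lv-Ctrl and 669 to 699 TPM in Lv-Piezo1, a log2 fold change of 0.50 (SE 0.03). Eno1, the main enolase, was at 675, 665, 681 and 652 TPM in Lv-Ctrl and 1060.1, 1072, 1056 and 1029.7 TPM in Lv-Piezo1, with a log2 fold change of 0.66 (SE 0.03, limma adjusted p = 9.4e-08). Eno2, the enolase of neurons, was at 249 to 254 TPM and 319.6 to 324 TPM. Its share of the pair was 27.0% to 27.7% in Lv-Ctrl and 23.1% to 23.7% in Lv-Piezo1. Eno3, an enolase outside the set, was lower, at 64.0 ± 5.56 against 36.1 ± 2.27 TPM (SD, n = 4). The log2 fold change of Eno3 was -0.81 (limma adjusted p = 1.1e-05), without overlap. Pkm, pyruvate kinase, was at 609.8 to 668 TPM and 732 to 754 TPM, a log2 fold change of 0.21 that was 0.050 after median-ratio scaling and no longer passed.

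**Figure D3:**
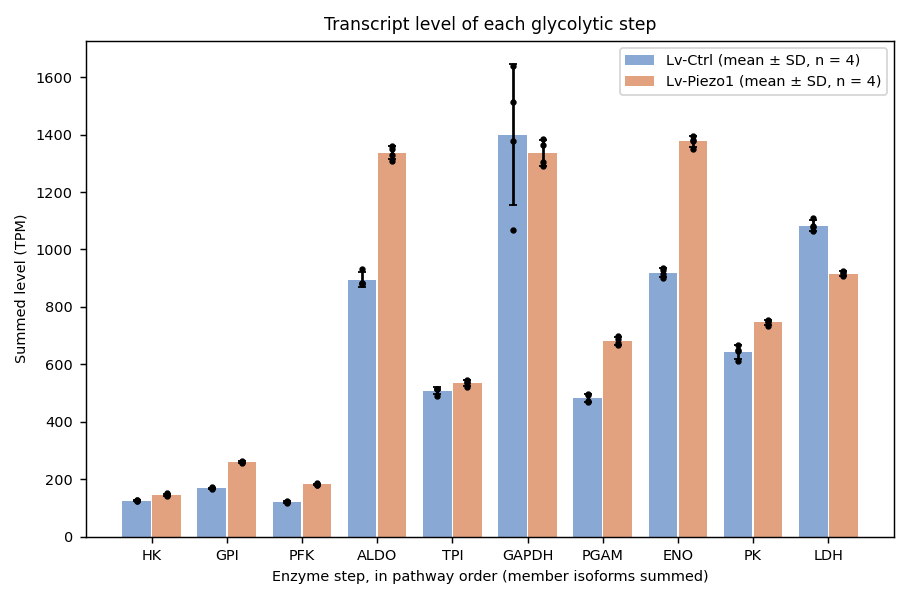
Summed level of the isoforms in the set at each enzyme step (y axis, TPM from 0), in pathway order (x axis, phosphoglycerate kinase not shown). Bars show the group means, error bars the SD (n = 4) and black points single samples. Pgam2 and Eno3, outside the set and lower in Lv-Piezo1, are not in the sums. Aldolase, enolase, phosphoglycerate mutase, isomerase (GPI) and phosphofructokinase are 1.41 to 1.54 times as high in Lv-Piezo1, triosephosphate isomerase is 1.05 times as high, GAPDH values overlap, and lactate dehydrogenase is lower.

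At the end of the pathway the lactate dehydrogenase genes parted. Ldhb, whose subunit is found mostly in tissues that burn lactate, was at 287, 292, 324 and 309.9 TPM in Lv-Ctrl and 89.7, 79.5, 81.7 and 78.4 TPM in Lv-Piezo1. Its log2 fold change was -1.87 (SE 0.05, limma adjusted p = 1.2e-08), the largest decrease among the members. Ldha, whose subunit predominates where pyruvate is turned into lactate, was at 777, 787, 758 and 798 TPM in Lv-Ctrl and 824, 826, 842 and 843 TPM in Lv-Piezo1, a log2 fold change of 0.10 (SE 0.03, limma adjusted p = 0.011). Under median-ratio scaling the Ldha value was -0.066 and did not pass. The share of Ldhb in the pair was 27.0%, 27.1%, 30.0% and 28.0% in Lv-Ctrl and 9.82%, 8.77%, 8.85% and 8.50% in Lv-Piezo1. The summed level was 1083 ± 18.3 TPM in Lv-Ctrl and 916 ± 8.13 TPM in Lv-Piezo1.

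Both monocarboxylate transporters of the set were higher, but a further one outside the set, Slc16a7, was lower. Slc16a7 was at 20.4 ± 0.397 TPM in Lv-Ctrl and 9.64 ± 0.533 TPM in Lv-Piezo1 (SD, n = 4). Its groups did not overlap, and its log2 fold change was -1.01 (limma adjusted p = 3.1e-07). Slc16a3, which encodes MCT4, the low-affinity transporter of lactate-exporting cells, was at 63.8, 64.9, 67.5 and 60.5 TPM in Lv-Ctrl and 188, 189.9, 188 and 180.4 TPM in Lv-Piezo1. The log2 fold change was 1.53 (SE 0.04, limma adjusted p = 6.0e-09), and each Lv-Piezo1 value was more than 2 times each Lv-Ctrl value. Slc16a1, which encodes MCT1, was at 19.9, 22.8, 15.8 and 19.1 TPM in Lv-Ctrl and 32.0, 29.4, 31.4 and 36.3 TPM in Lv-Piezo1, with a log2 fold change of 0.71 (SE 0.10). Slc16a3 made up 74.0% to 81.0% of the pair in Lv-Ctrl and 83.2% to 86.6% in Lv-Piezo1.

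Pdk1 and Pdha1, the members of the set at the entry of pyruvate into mitochondria, changed in opposite directions. Pdk1, a kinase that switches off pyruvate dehydrogenase, was at 13.5, 13.7, 13.0 and 14.9 TPM in Lv-Ctrl and 17.9, 16.4, 16.1 and 19.4 TPM in Lv-Piezo1, a log2 fold change of 0.32 (SE 0.07, limma adjusted p = 0.0031). Pdha1, the catalytic α subunit of pyruvate dehydrogenase, was at 88.2, 85.7, 73.4 and 85.2 TPM in Lv-Ctrl and 62.0, 61.7, 64.2 and 69.4 TPM in Lv-Piezo1, a log2 fold change of -0.36 (SE 0.06, limma adjusted p = 0.0010). Both kept their direction and passed after median-ratio scaling, with values of 0.16 and -0.52. Under quantile normalization, however, Pdk1 was 0.15 and no longer passed (limma adjusted p = 0.074). Of 12 further pyruvate entry genes, 4 were higher at an adjusted p below 0.05, 3 were lower and 5 did not pass. Of all tested genes 41.9% were higher and 16.3% lower. Among the 3 lower was Pdk4, a kinase more abundant than Pdk1 in Lv-Ctrl, at 44.4 against 17.2 TPM.

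**Figure D4:**
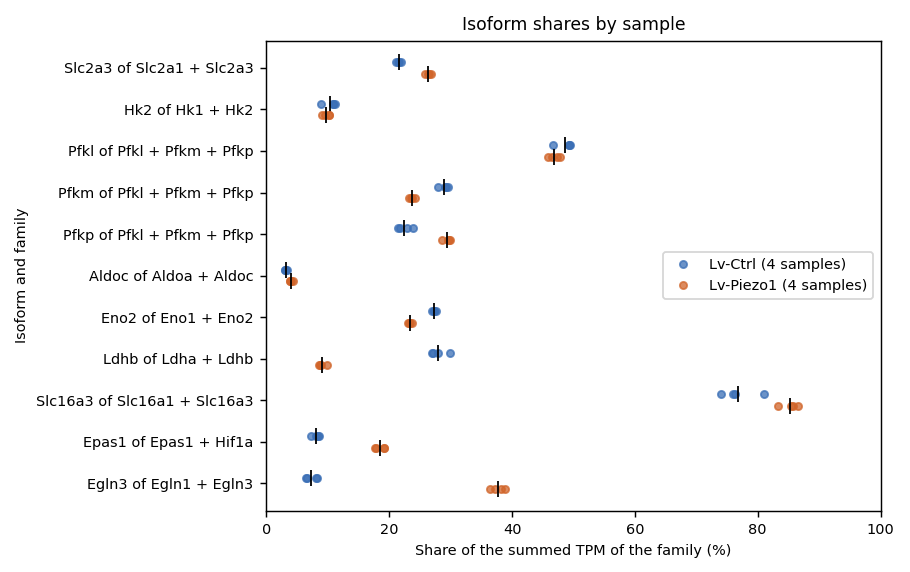
Share of 1 isoform in the summed TPM of those members of its family that are in the set (x axis, percent), in each sample. The y axis holds 11 shares, with blue points for Lv-Ctrl, orange points for Lv-Piezo1 and black ticks at the means. Egln2, Eno3 and Slc16a7, outside the set, are not in the sums. Egln3 moves from 7.31% to 37.7%, Ldhb from 28.0% to 8.99% and Epas1 from 8.08% to 18.5% on average, and the groups overlap for Hk2 and Pfkl.

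The PFKFB enzymes make and remove fructose-2,6-bisphosphate, the activator of phosphofructokinase. Pfkfb3, the form with the highest kinase activity, was at 41.2, 41.0, 34.4 and 37.99 TPM in Lv-Ctrl and 63.6, 62.5, 63.6 and 67.9 TPM in Lv-Piezo1, a log2 fold change of 0.72 (SE 0.06, limma adjusted p = 9.2e-06). Pfkfb4 was low, at 4.72, 4.91, 4.00 and 3.77 TPM in Lv-Ctrl and 8.26, 9.32, 8.13 and 7.98 TPM in Lv-Piezo1, with a log2 fold change of 0.82 (SE 0.09). Neither pair of groups overlapped.

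The HIF targets outside metabolism did not move together. Ddit4, which encodes REDD1, an inhibitor of mTORC1 that responds to hypoxia and to other stresses, was at 28.4, 29.4, 28.3 and 29.1 TPM in Lv-Ctrl and 79.4, 75, 78.8 and 78.1 TPM in Lv-Piezo1. Its log2 fold change was 1.40 (SE 0.03, limma adjusted p = 3.7e-09). Adm, the gene of the vasodilator peptide adrenomedullin, was the most abundant member in Lv-Ctrl on average and moved the other way, at 1600.2, 1653, 1532 and 1598 TPM in Lv-Ctrl and 843, 816, 860.0 and 894 TPM in Lv-Piezo1. The log2 fold change of Adm was -0.90 (SE 0.04, limma adjusted p = 9.5e-08), just inside the 2-fold line, and -1.07 after median-ratio scaling, which put it beyond that line.

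Bnip3, a mitophagy receptor and a common hypoxia marker, was also lower, at 253, 254, 235 and 249 TPM in Lv-Ctrl and 213, 208, 213 and 234 TPM in Lv-Piezo1, with a log2 fold change of -0.19 (SE 0.04, limma adjusted p = 0.0043). Car9, carbonic anhydrase IX, was at 254 to 264 TPM in Lv-Ctrl and 292 to 296 TPM in Lv-Piezo1, a log2 fold change of 0.18, which was 0.021 after median-ratio scaling. Ndrg1, a stress-responsive gene, was at 13.5 to 16.4 TPM and 17.8 to 20.8 TPM, with a log2 fold change of 0.33. Ankrd37 was at 3.15 to 3.93 TPM and 3.68 to 4.90 TPM. Its groups overlapped, while its adjusted p was 0.040, and it did not pass after median-ratio scaling or when any of 6 single samples was left out (limma adjusted p = 0.072 to 0.11).

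Other genes of these pathways changed in both directions. Of 91 tested rows in 7 lists, 9 were called higher and 6 lower, beside 4.91% and 2.76% of all tested genes. At an adjusted p below 0.05 alone 48 were higher, 22 lower and 21 did not pass, beside 41.9% higher and 16.3% lower of all genes, with a median log2 fold change of 0.19. After median-ratio scaling 5 were called higher and 6 lower, beside 3.92% and 3.57% of all tested genes. By adjusted p alone 34 were then higher and 30 lower, beside 27.9% and 27.9% of all tested genes. Among the other hypoxia targets, 8 of 39 were called higher and 3 lower, and 4 and 3 after median-ratio scaling. Of the 7 pentose phosphate genes 3 were higher at an adjusted p below 0.05 and 2 lower, and after median-ratio scaling 0 were higher and 3 lower. The 2 lower genes as deposited, Tkt and Taldo1, the transketolase and transaldolase, had log2 fold changes of -0.17 and -0.31. The 3 tested gluconeogenesis genes, G6pc3, Pck2 and Pc, were higher by 0.53, 0.35 and 0.32 on the log2 scale, while Pck1, Fbp1 and Fbp2 were below 1 TPM.

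The called genes outside the set included secreted factors in both directions. Pgf, placental growth factor, was at 1.01, 1.57, 1.94 and 1.1 TPM in Lv-Ctrl and 13.7, 15.3, 14.96 and 16.1 TPM in Lv-Piezo1, a log2 fold change of 2.75 (SE 0.12). Edn1, the gene of the vasoconstrictor endothelin-1, was at 114, 111, 99.8 and 118 TPM in Lv-Ctrl and 19.0, 20.7, 19.9 and 21.0 TPM in Lv-Piezo1, a log2 fold change of -2.40 (SE 0.06). Stc1, stanniocalcin-1, was at 1045, 1059.9, 750.0 and 945 TPM in Lv-Ctrl and 366, 355, 394 and 439.7 TPM in Lv-Piezo1, a log2 fold change of -1.28.

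Enzymes among these genes moved both ways too. Ak4, a mitochondrial adenylate kinase, changed by 1.67 on the log2 scale (3.16 ± 0.416 against 12.2 ± 0.202 TPM, SD, n = 4) and P4ha2, a collagen prolyl hydroxylase, by 1.41 (47.9 ± 2.25 against 129 ± 3.62 TPM). Pgam2, the muscle phosphoglycerate mutase, was lower, at 32.7 ± 6.04 against 10.9 ± 0.514 TPM with a log2 fold change of -1.48, in contrast to Pgam1. Pdk4, a further pyruvate dehydrogenase kinase, was lower, at 44.4 ± 4.46 against 17.2 ± 1.44 TPM with a log2 fold change of -1.32, in contrast to Pdk1. All 7 genes from outside the set named in this paragraph and the one before it had a limma adjusted p below 0.05 and no overlap between the groups.

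Spread within a group was small for most members. The median coefficient of variation was 5.09% in Lv-Ctrl and 3.28% in Lv-Piezo1, and the highest were 17.5% for Gapdh in Lv-Ctrl and 11.7% for Ankrd37 in Lv-Piezo1. Lv-Ctrl replicate 3 had the lowest level of its group in 21 of the 36 tested rows. The same count was not made over all tested genes, so it is not read as a trait of the members. Median-ratio scaling moved the summed enzyme level of that sample from 4910 to 5460 TPM, further than in the other Lv-Ctrl samples. The number of members called higher was 4 or 5 when any single sample was left out and the number called lower was 1, the fifth being Hif1a.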

How the data were processed

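RNA-seq was measured in 8 samples, 4 Lv-Ctrl and 4 Lv-Piezo1, grouped by their labels. The authors deposited 1 gene table in TPM, rounded to 2 decimals. Their methods name HISAT2, StringTie and the rat genome, while the submitters' processing notes list the build mm10 and DESeq2, so that the build is uncertain and no coordinates of the table were used. TPM keeps no depth: sequencing depth is unknown and no counting interval can be given. Every sample column was matched to a label (0 left unmapped).

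Rows with a mean of at least 1 TPM (13103 of 31699) were fitted with limma 3.58.1 (R 4.3.3, moderation with a trend) on log2(TPM + 1), with Benjamini-Hochberg adjustment over all of them. Calls needed an adjusted p below 0.05 and a 2-fold change. The fit was tested on simulated data. Alternatives changed the pseudocount, the filter, the scaling, the moderation, the replicate block and the samples. The exact permutation tests were two-sided. Fold changes understate the change of low genes because of the pseudocount. The study describes 4 biological repeats for the RNA-seq, which received Lv-Ctrl or Lv-Piezo1 under CMS. Its methods count 1 isolation of pooled rats as 1 repeat, so p-values measure the spread between these samples of pooled tissue. The main fit and the permutation tests treated the samples as independent and took no account of shared isolations.

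The members and lists were chosen with earlier results of these data known. All 37 members may be named. Members called, with the largest changes in their role, in isoform pairs or near the 2-fold line were given in full, and so were up to 4 rises and 4 falls among called genes of the other lists with at least 5 TPM and no overlap, of which 1 is not reported here. Lists overlap in a few genes. Protein sequences were not used here.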

Additional observations from a re-analysis of the deposited data

Results flagged for a closer look

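In 3 of 72 groups of 4 samples, a single sample stood apart from the other 3 by Dixon's criterion, which chance meets in about 1 of 20 groups. The main Aldoa row was at 881 TPM in Lv-Ctrl replicate 3, where the other Lv-Ctrl samples lay between 832 and 835 TPM. Tpi1 was at 489.6 TPM in Lv-Ctrl replicate 3, below the 514 to 515 TPM of the others. Vhl was at 30.8 TPM in Lv-Piezo1 replicate 4, above the 26.5 to 26.8 TPM of the others. No explanation of these 3 values was tested.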

How the results depend on the processing

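Judged by the call that needs both the adjusted p and the 2-fold change, 599 values of single members under the alternatives kept their direction and their call, 6 were newly called (Adm and Hif1a), 6 changed sign (4 genes) and 0 lost a call. Judged by the adjusted p alone, 17 values of 7 genes no longer passed, 10 of them of Ankrd37, and 3 values of Tpi1 and Gapdh newly passed. Under quantile normalization these were Pdk1 (0.15, adjusted p = 0.074), Vhl (adjusted p = 0.28) and Ankrd37 (adjusted p = 0.74), with Tpi1 newly past as higher (0.0998, adjusted p = 0.015). Under median-ratio scaling Hk2 was -0.033, Tpi1 -0.090 and Ldha -0.066, and under quantile normalization Hk2 was -0.059 and Gapdh 0.055. When single samples were left out Gapdh ran from -0.17, without Lv-Ctrl replicate 3, to 0.032, without Lv-Ctrl replicate 1. With a mean of at least 5 TPM required, 628 genes were called in place of 1005, and 372 in place of 644 as higher, because fewer genes were tested. Calls that were higher made up 64.1% as deposited, 52.3% with median-ratio scaling and 48.8% with quantile normalization. Median-ratio scaling gave 2 members called lower, 5 other pathway genes called higher in place of 9, a median of the members of 0.32 (0.40 with quantile normalization) and a difference in summed enzyme level of 670.4 TPM in place of 1335 TPM.

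Leaving out single samples gave 996 to 1038 called genes, 28 to 29 members higher and 4 to 5 lower at an adjusted p below 0.05, a median of 0.46 to 0.49 and a Piezo1 value of 0.33 to 0.43. No pairing by replicate number was seen in these values. The deviations of same-numbered samples correlated at -0.030, -0.058, -0.051 and -0.012, and no Lv-Ctrl sample correlated best with its own number. Whether same-numbered samples came from the same isolation cannot be told from this. With the replicate number as a block, 1004 genes were called in place of 1005, and 4 members higher and 1 lower, as without the block. Summing the Gapdh and Aldoa rows, an alternative chosen after seeing the data, changed no call. Because TPM keeps no depth, levels near the 1 TPM limit could not be given a counting error.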
